A study of Homo sapiens with 21 samples.

Results

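The genes described here encode 10 receptors, or receptor subunits, through which myeloid cells read cytokines. They are the GM-CSF receptor subunits CSF2RA and CSF2RB, the IL-3 receptor subunit IL3RA, the G-CSF receptor CSF3R, the IL-6 receptor IL6R and its signalling partner IL6ST, the IL-7 receptor IL7R, the IL-10 receptor subunit IL10RA, the interferon-gamma receptor subunit IFNGR1 and the TNF receptor TNFRSF1B. They were chosen by name, with earlier results of these data known. The counts of called receptors set beside all genes below are therefore description and no test of the group. Every probe set that the array annotation assigns to 1 of these symbols and to no other gene was taken, which gave 18 of 22277 probe sets and 10 of the 12165 genes tested. A further probe set that carries IL6ST together with a second gene was left out.

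The receptors were measured in 3 established human acute myeloid leukaemia lines. MOLM-14 is monocytic and is known for an activating duplication in the receptor kinase FLT3, HL-60 is promyelocytic, and U937, from a lymphoma of histiocytes, is monocytic. Each line had been infected with 1 of 3 short hairpin RNAs, shLuc against luciferase, which human cells lack, or shSYK_1 or shSYK_2 against SYK, a cytoplasmic tyrosine kinase that couples immune receptors and integrins to downstream signalling. Cells of every group, the controls included, went through infection and selection in puromycin at 1 µg/ml from 48 h, and total RNA was taken at day 5 and hybridised to 21 Affymetrix expression arrays. Each line had 3 arrays with shLuc and 2 with either SYK hairpin, described in the labels as repeat transductions. The p-values below therefore measure the spread between transductions of 3 lines and reach no further.

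Most of these receptors have no enzyme of their own. On ligand binding, a ligand-specific chain pairs with a shared chain, the attached JAK kinases phosphorylate each other and the receptor, and STAT transcription factors dock, dimerise and move to the nucleus. CSF2RB is the shared beta chain of the GM-CSF, IL-3 and IL-5 receptors, and IL6ST (gp130) is shared by the IL-6 family, whereas TNFRSF1B signals through TRAF adaptors to NF-kB. In myeloid cells GM-CSF, IL-3 and G-CSF drive survival, growth and granulocyte or monocyte output, interferon-gamma activates macrophages and IL-10 restrains them, and IL-7 is known mainly as a lymphoid cytokine.

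The 2 SYK hairpins are shown because many receptors responded differently to them. The target sequences, as the labels give them, are 21 bases long, and the capitals mark target bases 14 to 20, which lie opposite bases 2 to 8 of the guide strand, its seed.
shSYK_1 target: gcagcagaacagaCATGTCAa
shSYK_2 target: gcaggccatcatcAGTCAGAa
The capital stretches of the 2 targets differ, so the 2 guides carry different seeds.

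For IL3RA and IL7R, whose shLuc levels were higher in MOLM-14 than in either other line, and for CSF2RA, whose gene lies near IL3RA, the 250 bases before the RefSeq transcription start are shown on the gene's own strand (RefSeq, GRCh38.p14, used for sequence only). Capitals mark matches on either strand to GAGGAA, the core of sites of the myeloid factor PU.1, to TTNNGNAA, a loose form of C/EBP sites, and to TTCNNNGAA, the STAT site. Both CSF2RA and IL3RA are pseudoautosomal, and the coordinates given are those of the X copy.
CSF2RA, chrX:1268564-1268813, plus strand: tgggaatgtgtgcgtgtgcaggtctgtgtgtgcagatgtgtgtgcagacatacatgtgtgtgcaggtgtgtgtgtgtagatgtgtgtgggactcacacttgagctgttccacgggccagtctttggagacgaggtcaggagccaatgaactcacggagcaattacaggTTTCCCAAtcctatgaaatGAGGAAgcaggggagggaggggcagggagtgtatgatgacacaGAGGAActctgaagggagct
IL3RA, chrX:1336535-1336784, plus strand: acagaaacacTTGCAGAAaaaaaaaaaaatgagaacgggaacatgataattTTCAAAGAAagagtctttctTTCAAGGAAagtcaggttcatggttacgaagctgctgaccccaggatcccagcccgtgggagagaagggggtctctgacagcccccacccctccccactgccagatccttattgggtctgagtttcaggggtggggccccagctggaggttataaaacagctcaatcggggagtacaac
IL7R, chr5:35856641-35856890, plus strand: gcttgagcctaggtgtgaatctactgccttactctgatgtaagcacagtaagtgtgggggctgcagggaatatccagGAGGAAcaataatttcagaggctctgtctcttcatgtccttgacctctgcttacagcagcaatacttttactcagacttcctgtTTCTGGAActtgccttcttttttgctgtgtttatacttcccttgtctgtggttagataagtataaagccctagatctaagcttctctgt
The CSF2RA window held 2 matches to GAGGAA and 1 to TTNNGNAA. The window of IL3RA held 2 matches to TTCNNNGAA and 1 to TTNNGNAA, and that of IL7R held 1 to GAGGAA and 1 to TTNNGNAA. IL6ST also had a higher shLuc level in MOLM-14 than in either other line. Its window, not shown, held no match to any of these sequences. Among 35093 promoter windows of that length, 23.6% held GAGGAA, 33.2% held TTNNGNAA and 6.57% held TTCNNNGAA. A match describes the letters and shows no bound factor. A promoter entry was found for 9 of the 10 receptors, CSF2RB being the exception.

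Values are log2 of the RMA intensity, on which a step of 1 is a doubling and most genes of an array lie low: the array medians were between 4.20 and 4.36. SYK itself, read first as a check of the hairpins, lay between 8.42 and 9.05 on the shLuc arrays and between 5.35 and 7.04 on the SYK hairpin arrays, with 16.2% to 26.7% of the control intensity left in the 3 lines. On 39 genes that define erythroid, T and NK, B, epithelial or stromal cells the median level was 3.20, with quartiles of 2.82 and 3.68, and levels in that range are called dim below. Of the myeloid markers CEBPA and ELANE were bright in all 3 lines, MPO was bright in HL-60, and CD14 was dim in MOLM-14 and U937. By their shLuc means ITGAX and CD68 were dim in all 3 lines, MPO was dim in U937 and CEBPE in MOLM-14. FCGR1A, TYROBP and CST3 lay well above the dim range in all 3 lines. On the other lists 3 markers were bright: NKG7 (shLuc means of 7.32 in HL-60, 7.64 in MOLM-14 and 10.31 in U937), PECAM1, which leukocytes also express (7.48, 9.01 and 8.43 in that order, with 8.58 and 8.48 in HL-60 with shSYK_1 and shSYK_2), and KRT18 in MOLM-14 (7.54). The labels of HL-60 shSYK_2 replicate 1 conflict: its title and treatment say shSYK_2 and its source name says shSYK_1. It was kept as shSYK_2. Its upper quartile of intensity was 122.3, against 134.5 to 139.8 on the other 20 arrays, and where leaving it out changes a receptor's call in a contrast that uses it, both values are given.

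**Figure D1:**
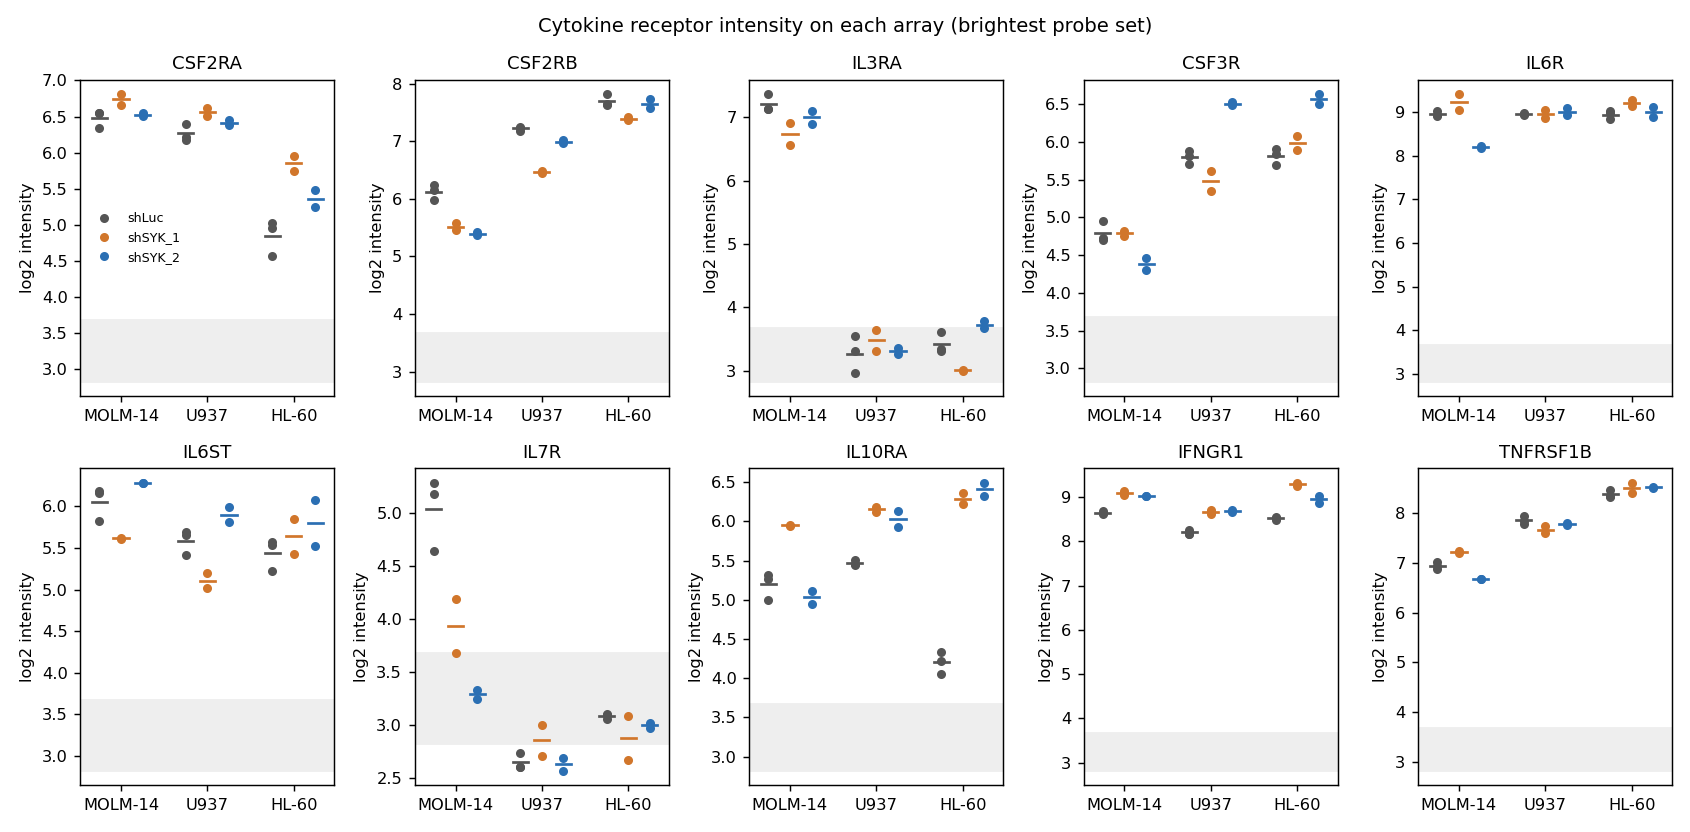
Log2 intensity of each receptor on its brightest probe set; points are arrays, bars group means, colours hairpins, and the grey band is the quartile range of 39 marker genes of other lineages (2.82 to 3.68). IL3RA and IL7R lie in or near the band in U937 and HL-60 and above it in MOLM-14 with shLuc, IL10RA rises in HL-60 from 4.20 to above 6, and IFNGR1 is higher with both SYK hairpins in every line.

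Averaged over the lines and both hairpins, 6 of the 10 receptors changed with SYK knockdown, against 34.1% of all genes tested (limma, Benjamini-Hochberg adjusted p below 0.05, which is what called, rose and fell mean below). IL10RA, IFNGR1, CSF2RA and CSF3R rose, as 17.1% of all genes did, and CSF2RB and IL7R fell, as 17% did. The median change of the 10 was 0.0147, against 0.0054 for all genes, and their median absolute change was 0.26 against 0.09 over all genes. The single lines gave 4 called receptors in HL-60 (background 24.4%), 4 in MOLM-14 (19.4%) and 3 in U937 (14.7%). All 4 hairpin arrays lay clear of all 3 controls for 3 receptors in HL-60, 4 in MOLM-14 and 3 in U937, as for 22%, 18.9% and 17.1% of all genes. IL10RA and IFNGR1 were called in each of the lines. Only IFNGR1, CSF2RA and CSF2RB were called in the average with 1 sign in all 6 combinations of line and hairpin, a pattern found in 11.9% of all genes; CSF2RB keeps 1 sign only with the array of conflicting labels, without which shSYK_2 in HL-60 gives 0.04. Bulk RNA cannot tell fewer cells of a kind from less RNA per cell.

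In the average of the lines the GM-CSF receptor subunits changed in opposite directions, but pooled over both hairpins no single line had both called. CSF2RB was called in MOLM-14 and U937, and CSF2RA in HL-60. With shSYK_1 alone both were called in HL-60 (CSF2RB -0.31, CSF2RA 1.00). CSF2RB, the signalling beta chain, fell by 0.45 on the log2 scale in the average of the lines (SE 0.0400, limma adjusted p = 2.41e-07), and CSF2RA, the ligand-binding alpha chain, rose by 0.38 (SE 0.0596, adjusted p = 9.73e-05). In MOLM-14 the CSF2RB arrays read 6.15, 5.98 and 6.24 with shLuc, 5.57 and 5.45 with shSYK_1, and 5.37 and 5.42 with shSYK_2. All 4 hairpin arrays were below all 3 controls, and the fall was 0.67 (SE 0.0694, adjusted p = 5.04e-06), a 1.59-fold drop that both hairpins gave on their own.

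In U937 the CSF2RB arrays read 7.23, 7.18 and 7.26 with shLuc, 6.48 and 6.45 with shSYK_1, and 6.97 and 7.02 with shSYK_2. The hairpin arrays were again all lower, but by unequal amounts: shSYK_1 gave -0.76 (adjusted p = 7.4e-06) and shSYK_2 gave -0.23 (adjusted p = 0.0764), and the difference between the hairpins was itself called (0.53, adjusted p = 3.79e-04). In HL-60, where CSF2RB was brightest, it read 7.65, 7.82 and 7.63 with shLuc, 7.36 and 7.42 with shSYK_1, and 7.57 and 7.74 with shSYK_2. Here both shSYK_1 arrays stood below the controls (-0.31, adjusted p = 0.0109), while 1 shSYK_2 array was just below them and 1 among them (-0.05, 95% interval -0.22 to 0.13; 0.04 without the array of conflicting labels, which is the lower one), and the pooled change of -0.18 did not pass (adjusted p = 0.0767).

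CSF2RA moved most in HL-60, the line with the least of it. Its arrays there read 4.57, 4.95 and 5.02 with shLuc, 5.96 and 5.74 with shSYK_1, and 5.24 and 5.49 with shSYK_2. No hairpin array overlapped the controls, the rise was 0.76 (SE 0.103, adjusted p = 4.17e-05), and shSYK_1 gave 1.00 and shSYK_2 0.52. Without HL-60 shSYK_2 replicate 1 the rise was 0.82 (adjusted p = 5.55e-05), and the difference between the hairpins, called with that array (-0.49, adjusted p = 0.0161), was not (-0.36, adjusted p = 0.168).

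The other lines started higher in CSF2RA, at 6.48 ± 0.119 (SD, n = 3) in MOLM-14 and 6.27 ± 0.119 (n = 3) in U937, and the changes of 0.15 (95% interval -0.07 to 0.37) and 0.22 (0.00 to 0.44) did not pass. With shSYK_1, CSF2RA in HL-60 reached 5.85 ± 0.149 (n = 2), still below the control level of the other lines.

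IL3RA, the ligand-binding chain for IL-3, stood clear of the dim level in MOLM-14 alone. With shLuc it read 3.31, 3.61 and 3.35 in HL-60, 3.31, 3.54 and 2.96 in U937, and 7.13, 7.13 and 7.36 in MOLM-14. The first 2 lines lay at the dim level and could not be told apart (-0.15, 95% interval -0.44 to 0.14), while MOLM-14 was above U937 by 3.94 (SE 0.137, adjusted p = 1.47e-13), which was the largest control difference among the receptors. In MOLM-14 IL3RA read 6.56 and 6.91 with shSYK_1 and 6.90 and 7.09 with shSYK_2. All 4 lay below the 3 controls, yet the pooled change of -0.34 did not pass (adjusted p = 0.0721), and of the single hairpins shSYK_1 did (-0.47, adjusted p = 0.0303).

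CSF3R, the G-CSF receptor of the granulocyte lineage, changed more with shSYK_2 than with shSYK_1 (difference 0.40 in the average of the lines, adjusted p = 1.12e-04). In U937 it read 5.71, 5.88 and 5.81 with shLuc, 5.35 and 5.62 with shSYK_1, and 6.52 and 6.49 with shSYK_2. The hairpins moved away from the controls in opposite directions, shSYK_1 by -0.32 (adjusted p = 0.044) and shSYK_2 by 0.70 (adjusted p = 1.22e-04). In HL-60 the arrays read 5.84, 5.90 and 5.69 with shLuc, 6.08 and 5.89 with shSYK_1, and 6.63 and 6.51 with shSYK_2. The shSYK_2 arrays were again the highest, by 0.76 over shLuc (adjusted p = 7.11e-05; 0.69 and 0.00247 without the array of conflicting labels), and the shSYK_1 arrays did not differ detectably (0.17, 95% interval -0.04 to 0.39).

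In MOLM-14 the order turned: CSF3R read 4.96, 4.72 and 4.70 with shLuc, 4.76 and 4.82 with shSYK_1, and 4.30 and 4.46 with shSYK_2. There shSYK_2 gave the lowest arrays (-0.41, adjusted p = 0.0107). The rise of 0.15 in the average (adjusted p = 0.026) thus covers changes of both signs, and it lost its call under 10 alternatives, 7 of them the removal of a single array (adjusted p between 0.0518 and 0.0612), with 0.12 and an adjusted p of 0.174 in the fit with the replicate number as a block.

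IL6R, which binds IL-6, was the most even of the receptors across the control lines and changed in 1 of its 6 combinations of line and hairpin. With shLuc it stood at 8.94 ± 0.0920 (n = 3) in HL-60, 8.95 ± 0.0234 in U937 and 8.95 ± 0.0624 in MOLM-14, and no pair of lines passed the test (all 3 intervals of the difference within -0.19 to 0.21). In MOLM-14 the arrays read 9.03, 8.92 and 8.92 with shLuc, 9.41 and 9.05 with shSYK_1, and 8.22 and 8.17 with shSYK_2. The shSYK_2 arrays stood apart below all others, with a difference of -0.76 from shLuc (adjusted p = 8.15e-05) and of -1.03 from shSYK_1 (SE 0.114, adjusted p = 3.43e-06). In U937 and HL-60 the shSYK_2 change was 0.05 in each, with 95% intervals of -0.17 to 0.27, and in HL-60 0.17 (adjusted p = 0.461) without the array of conflicting labels. The second IL6R probe set, fitted among all probe sets, also fell with shSYK_2 in MOLM-14 (-0.66, adjusted p = 0.00451).

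IL6ST, the gp130 chain that IL6R needs to signal, was higher with shSYK_2 than with shSYK_1 (0.54 in the average of the lines, adjusted p = 5.29e-04). Against shLuc, the average rose with shSYK_2 (0.30, adjusted p = 0.0253; 0.39 and 0.00373 without the array of conflicting labels), and shSYK_1 gave -0.24 (adjusted p = 0.0573). It read 6.16, 5.82 and 6.18 with shLuc, 5.60 and 5.62 with shSYK_1 and 6.28 on both arrays with shSYK_2 in MOLM-14. In U937 it read 5.66, 5.69 and 5.42, then 5.20 and 5.01, then 5.99 and 5.81. In both lines shSYK_1 lay below the controls and shSYK_2 above them, without passing against shLuc (adjusted p = 0.0603 and 0.421 in MOLM-14, 0.0551 and 0.245 in U937), but the distance between the hairpins passed, at 0.67 (adjusted p = 0.0104) and 0.79 (adjusted p = 0.00362). The shSYK_1 change became called in MOLM-14 under 11 alternatives and in U937 under 14. In HL-60 the arrays read 5.57, 5.54 and 5.23, then 5.85 and 5.43, then 5.52 and 6.07. These overlapped, and the pooled change of 0.27 (adjusted p = 0.17) became 0.41 (adjusted p = 0.0332) without the array of conflicting labels, and that of shSYK_2 alone went from 0.35 (adjusted p = 0.14) to 0.63 (adjusted p = 0.0354).

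IL7R, the alpha chain that binds IL-7, was the receptor with the steepest fall, and that fall was in MOLM-14. Its arrays there read 4.64, 5.18 and 5.29 with shLuc, 4.19 and 3.68 with shSYK_1, and 3.33 and 3.25 with shSYK_2. The groups did not overlap, and with shSYK_2 the level reached the dim range. The pooled fall was 1.42 (SE 0.144, adjusted p = 3.96e-06), 2.68-fold, with changes of -1.10 for shSYK_1 and -1.75 for shSYK_2 that differed from each other (-0.65, adjusted p = 0.0165).

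In U937 and HL-60 the IL7R arrays lay between 2.57 and 3.10 in every group, at or under the dim level, so a further fall could not be measured there. The change was 0.09 (95% interval -0.21 to 0.40) in U937 and -0.15 (-0.45 to 0.16) in HL-60. Averaged over the lines IL7R fell by 0.49 on the log2 scale (adjusted p = 1.83e-04), an average that takes in these dim values. Of the 13 measured myeloid markers 8 were called in MOLM-14, against 19.4% of all genes. MPO (-0.83) and FCER1G (-0.64) fell, and ITGAX (0.53), TYROBP (0.50), ITGAM (0.47), ELANE (0.32), CST3 (0.27) and FCGR1A (0.17) rose. ITGAM changed by 1.12 with shSYK_1 and by -0.18, not called, with shSYK_2. CST3 was called in opposite directions, at 0.94 with shSYK_1 and -0.39 with shSYK_2. FCGR1A (0.44 and -0.10) and TYROBP (0.80 and 0.21) were called with shSYK_1 only. The summed intensity of the list, in which the brightest markers weigh most, was 5988 to 6417 with shLuc, 7394 to 7778 with shSYK_1 and 6673 to 6838 with shSYK_2. The median log2 level of the list went down, from 5.975 to 6.28 with shLuc to 5.49 to 5.522 with shSYK_1 and 5.111 to 5.144 with shSYK_2. The part of these markers in the IL7R result was not tested.

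IL10RA, the ligand-binding chain of the IL-10 receptor, gave the largest change of the 10 receptors. In HL-60 it read 4.33, 4.22 and 4.05 with shLuc, 6.36 and 6.23 with shSYK_1, and 6.33 and 6.49 with shSYK_2. The 4 hairpin arrays formed 1 cluster well above the controls, the rise was 2.15 (SE 0.0866, adjusted p = 4.92e-11), 4.44-fold, and the hairpins did not differ detectably (0.12, 95% interval -0.12 to 0.36). Without the array of conflicting labels it was 2.19 (adjusted p = 4.18e-10).

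In U937 IL10RA read 5.45, 5.51 and 5.45 with shLuc, 6.19 and 6.12 with shSYK_1, and 6.13 and 5.92 with shSYK_2. Again no array overlapped, with a rise of 0.62 (SE 0.0866, adjusted p = 1.03e-04). MOLM-14 was different: 5.32, 5.00 and 5.27 with shLuc, 5.94 and 5.95 with shSYK_1, but 4.95 and 5.12 with shSYK_2. Only shSYK_1 raised IL10RA there (0.75, adjusted p = 3.99e-05; shSYK_2 -0.16, adjusted p = 0.343), and the pooled rise of 0.29 (adjusted p = 0.0232) lost its call under 6 alternatives, with 0.20 (adjusted p = 0.15) when MOLM-14 shLuc replicate 2 was left out and 0.33 (adjusted p = 0.0766) with the replicate number as a block.

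HL-60 began with the least IL10RA, 4.20 ± 0.141 (n = 3) against 5.47 ± 0.0343 in U937 and 5.20 ± 0.172 in MOLM-14, and with the hairpins it had the highest levels of the 3 lines, 6.29 ± 0.0920 and 6.41 ± 0.115 (n = 2 each). CD14, the monocyte lipopolysaccharide receptor, moved in the same arrays: in HL-60 it rose by 2.39, with 2.94 for shSYK_1 and 1.84 for shSYK_2, and in MOLM-14 (0.09) and U937 (0.05) it was not called. Of the 13 myeloid markers 8 rose and 2 fell in the average, against 17.1% and 17% of all genes. The summed intensity of the list in HL-60, in which the brightest markers weigh most, was 13340 to 13980 with shLuc, 12510 to 12770 with shSYK_1 and 13280 to 13410 with shSYK_2. The median log2 level of the list rose there, from 7.437 to 7.495 with shLuc to 8.507 to 8.562 with shSYK_1 and 8.266 to 8.504 with shSYK_2. ITGAM rose by 1.16 in HL-60 (1.86 with shSYK_1, 0.46 with shSYK_2) and by 1.28 in U937 (2.21 and 0.34). FCER1G (1.17), CST3 (0.70), TYROBP (0.62), ITGAX (0.34), CD68 (0.33) and FCGR1A (0.26) also rose in HL-60. MPO (-0.54) and CEBPA (-0.18) fell there. The part of these markers in the IL10RA result, and in the CSF2RA and CSF3R results of HL-60, was not tested.

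IFNGR1, the ligand-binding chain for interferon-gamma, rose in every line with both hairpins. In MOLM-14 it read 8.68, 8.63 and 8.60 with shLuc, 9.05 and 9.13 with shSYK_1, and 9.03 and 9.01 with shSYK_2. In U937 the values were 8.26, 8.16 and 8.16, then 8.60 and 8.70, then 8.70 and 8.67. In HL-60 they were 8.48, 8.55 and 8.52, then 9.32 and 9.25, then 8.87 and 9.02. In each line every hairpin array was above every control, and the pooled rises were 0.41, 0.47 and 0.60 (SE 0.0537 each, adjusted p = 4.26e-05, 1.33e-05 and 4.57e-07).

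All 6 single combinations of line and hairpin were called for IFNGR1, from 0.38 to 0.77. No pair of lines passed a test of the difference in the size of its rise, the largest gap being -0.19 between MOLM-14 and HL-60 (95% interval -0.35 to -0.03, adjusted p = 0.151). The lone difference between hairpins within a line was in HL-60, where shSYK_2 gave the smaller rise (-0.34, adjusted p = 0.00254), and -0.26 (adjusted p = 0.0381) without the array of conflicting labels.

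TNFRSF1B, the second TNF receptor, showed no average change (0.00, 95% interval -0.08 to 0.08). In MOLM-14, however, it read 6.94, 6.88 and 7.02 with shLuc, 7.24 and 7.21 with shSYK_1, and 6.68 on both arrays with shSYK_2. The hairpins lay on opposite sides of the controls, at 0.28 (adjusted p = 0.012) and -0.27 (adjusted p = 0.0229), and differed from each other by -0.54 (adjusted p = 1.02e-04). In U937 and HL-60 none of the 4 hairpin effects passed, and all lay between -0.19 and 0.14.

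**Figure D2:**
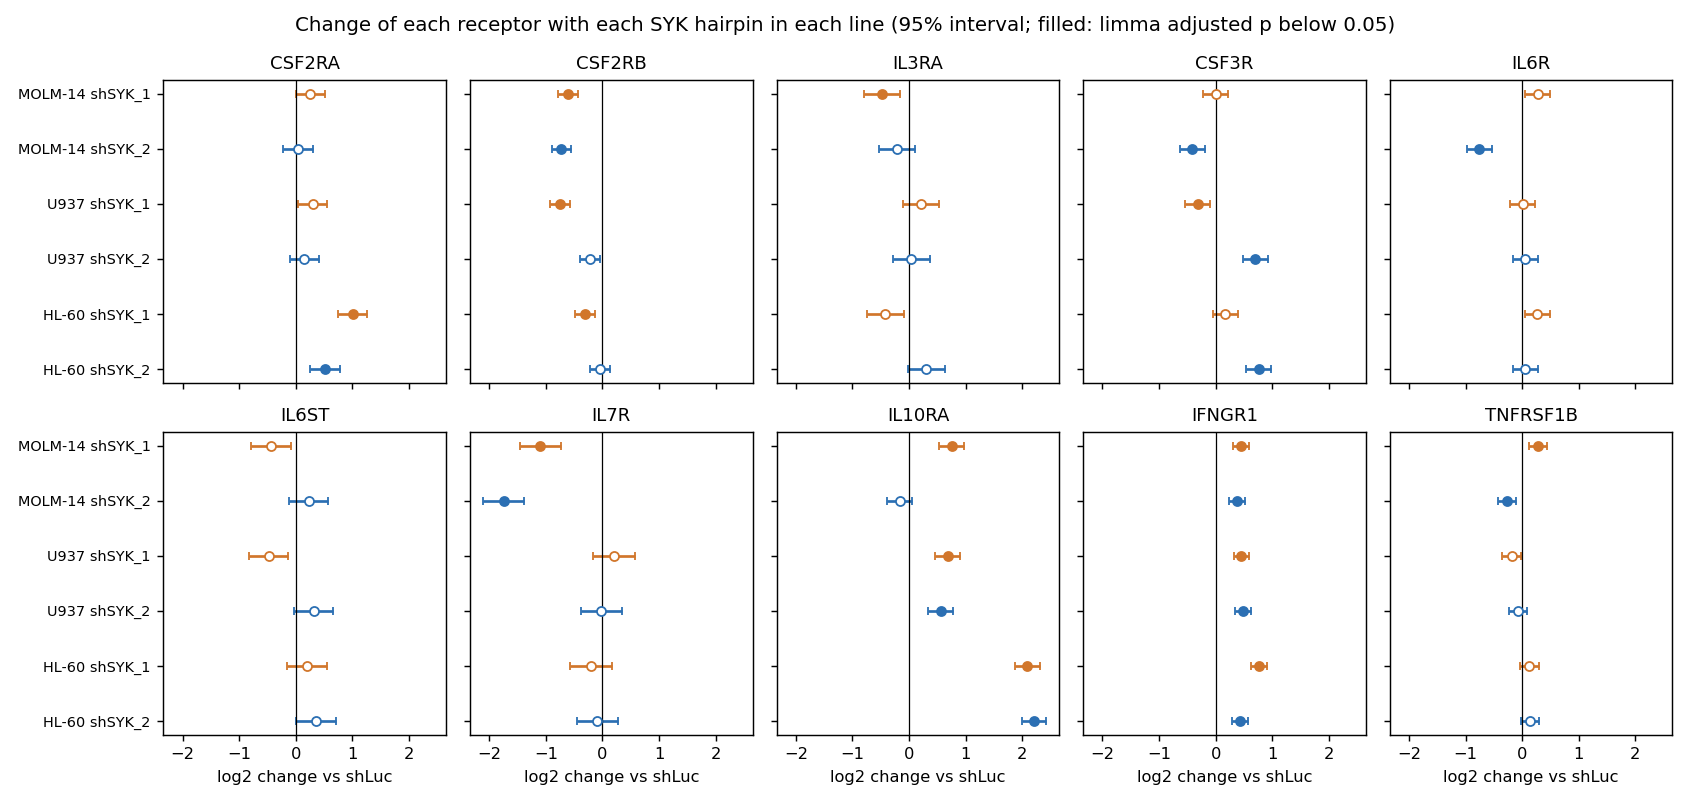
Log2 change of each receptor against the shLuc arrays of the same line, for each hairpin in each line; bars are 95% intervals and filled points passed an adjusted p of 0.05. IFNGR1 is filled in all 6 positions, IL10RA reaches 2.09 and 2.21 in HL-60, IL7R is filled in MOLM-14 alone (-1.10 and -1.75), and the CSF3R points of shSYK_2 lie on both sides of 0.

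Over the 60 combinations of receptor, line and hairpin, 27 were called. For shSYK_1 the counts were 4 of 10 in HL-60 (background 24.3%), 4 in U937 (16.9%) and 6 in MOLM-14 (25.5%), and for shSYK_2 they were 4 (21.5%), 3 (16.2%) and 6 (16.6%) in the same order. The hairpins share their shLuc controls within a line. Averaged over the lines, 6 receptors were called with shSYK_1 (35.6% of all genes) and 8 with shSYK_2 (30.3%).

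Compared with each other directly, the 2 hairpins differed for 9 of the 10 receptors in the average of the lines, against 35.7% of all genes. CSF2RB, IL3RA, CSF3R and IL6ST were higher with shSYK_2, by 0.23, 0.27, 0.40 and 0.54. CSF2RA, IL6R, IL10RA, IFNGR1 and TNFRSF1B were lower with shSYK_2, by differences from -0.13 (IFNGR1) to -0.40 (IL6R), and IL7R did not pass (-0.25, adjusted p = 0.0842). The IL3RA difference was called in HL-60 (0.72), where IL3RA was dim, and not in MOLM-14 (0.26, adjusted p = 0.308) or U937 (-0.18, adjusted p = 0.542). Without the array of conflicting labels the average differences of IL3RA (0.25, adjusted p = 0.0833) and IFNGR1 (-0.10, adjusted p = 0.0638) lost their calls. The count was 7 without the array of conflicting labels and 5 with that array placed in shSYK_1. In the single lines 5 receptors differed in HL-60 (background 22.2%), 3 in U937 (23%) and 6 in MOLM-14 (25.9%). SYK itself was lower with shSYK_2 than with shSYK_1 (-0.45 in the average, adjusted p = 2.94e-06), and the part of that in the receptor differences was not tested.

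Differences between lines in the size of the response, pooled over hairpins, were called for 5 receptors. Between MOLM-14 and HL-60, 5 of 10 differed (background 8.48%), between U937 and HL-60 2 (6.88%) and between MOLM-14 and U937 1 (3.7%), and each line enters 2 of these comparisons. IL10RA rose most in HL-60: the response there was larger than in MOLM-14 (MOLM-14 minus HL-60 -1.85, adjusted p = 1.01e-07) and than in U937 (U937 minus HL-60 -1.53, adjusted p = 9.34e-07). For IL7R the differences in change were -1.52 (MOLM-14 minus U937) and -1.28 (MOLM-14 minus HL-60), but these are no comparison of responses, since U937 and HL-60 lay at the dim level with shLuc and had no room to fall. The responses of CSF2RA, CSF2RB and CSF3R also differed between MOLM-14 and HL-60, by -0.61, -0.49 and -0.67 (MOLM-14 minus HL-60, adjusted p = 0.0144, 0.00473 and 0.00222). Without the array of conflicting labels 2 more differences were called, IL6R between MOLM-14 and HL-60 (-0.46, adjusted p = 0.0274, against -0.40 and 0.0537 with it) and CSF2RB between U937 and HL-60 (-0.36, adjusted p = 0.0379, against -0.32 and 0.0653).

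With the control hairpin the lines differed in most of these receptors. In the shLuc arrays 8 of 10 differed between MOLM-14 and U937 (background 52.1%), 8 between MOLM-14 and HL-60 (49.4%) and 6 between U937 and HL-60 (52.8%). MOLM-14 had the highest IL3RA, IL7R and IL6ST and the lowest CSF2RB, CSF3R and TNFRSF1B. The order for CSF2RB was HL-60 (7.70 ± 0.103, n = 3), U937 (7.22 ± 0.0386) and MOLM-14 (6.12 ± 0.134), and TNFRSF1B had the same order (8.39 ± 0.0813, 7.86 ± 0.0774 and 6.94 ± 0.0708), with each neighbouring pair called.

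CSF2RA ran the other way, lowest in HL-60 at 4.85 ± 0.245 (n = 3), 1.64 below MOLM-14 and 1.42 below U937, which were not called apart (0.22, adjusted p = 0.117). For CSF3R, U937 (5.80 ± 0.0886) and HL-60 (5.81 ± 0.109) could not be told apart and MOLM-14 was lower than both (-1.01 and -1.02). IFNGR1 was lowest in U937 (8.20 ± 0.0584), while MOLM-14 (8.64 ± 0.0381) and HL-60 (8.51 ± 0.0333) were not called apart (0.13, adjusted p = 0.0833). IL6ST was highest in MOLM-14 (6.06 ± 0.203), with U937 and HL-60 not apart (0.15, adjusted p = 0.446).

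**Figure D3:**
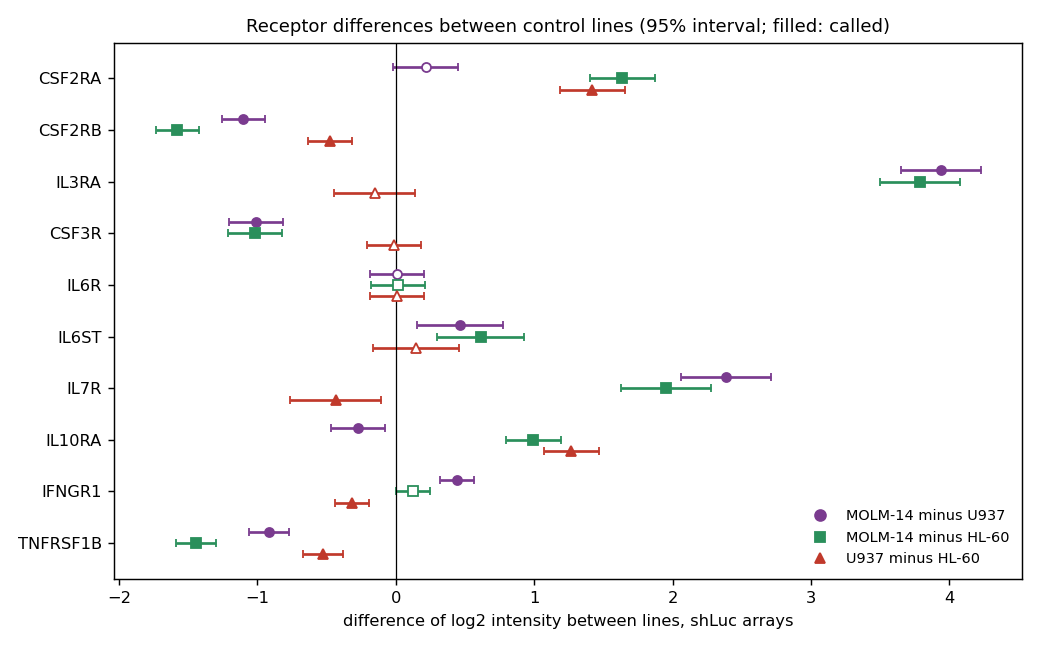
Differences of log2 intensity between the shLuc arrays of 2 lines for each receptor, with 95% intervals; filled points passed an adjusted p of 0.05. IL3RA is 3.94 and 3.79 higher in MOLM-14 than in U937 and HL-60, and the 3 IL6R points lie at 0.

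Receptors with several probe sets allowed a check within the gene. CSF2RA had 4: in the fit of all probe sets 3 rose in HL-60, by 0.76, 0.67 and 0.61, and the fourth did not pass (0.08, adjusted p = 0.716). Both IFNGR1 sets rose in all 3 lines, the second by 0.54, 0.47 and 0.66. The 3 further IL6ST sets had mean levels of 2.95 to 3.60, in the dim range, and none was called for pooled knockdown in any line. The remaining 6 receptors had 1 probe set each.

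**Figure D4:**
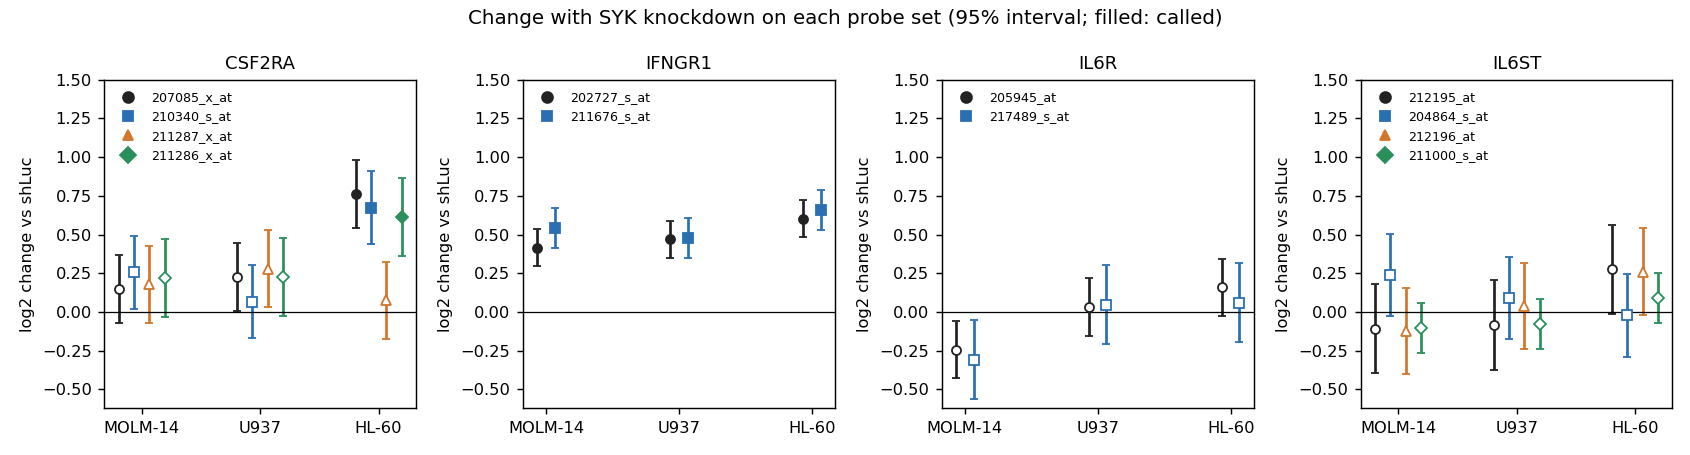
Pooled change with SYK knockdown in each line on every probe set of the 4 receptors that have several; bars are 95% intervals and filled points passed an adjusted p of 0.05 in the fit of all probe sets. Both IFNGR1 sets are filled in each line, and 3 of 4 CSF2RA sets are filled in HL-60.

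The pathway genes around these receptors were read from fixed lists, also chosen with earlier results known, in the average contrast. The background for each count is the 17.1% of all genes that rose and the 17% that fell. Of 26 other receptor chains measured, 11 rose and 3 fell, with a median of 0.08. IL10RB, the signalling partner of IL10RA, rose in all 3 lines (average 0.43, adjusted p = 2.61e-07; 0.60, 0.43 and 0.26 in HL-60, U937 and MOLM-14). IFNGR2, the partner of IFNGR1, was not called (0.05, limma adjusted p = 0.233). IL13RA1, a chain for IL-4 and IL-13, rose by 0.38, and in single lines in HL-60 alone (0.86). IL4R rose by 0.20 and IL1R1, a dim gene, by 0.45. Among those that fell, IL2RG, the common gamma chain that pairs with IL7R, changed by -0.29, the interferon receptor chain IFNAR2 by -0.27 and IL1RAP by -0.13, and IL1RAP moved in opposite directions with the hairpins in MOLM-14 (-0.83 with shSYK_1, 0.61 with shSYK_2).

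Of 15 ligands of these receptors measured, against 34.1% of all genes called, 1 rose (IL10, by 0.12, at the dim level) and 1 fell (TNF, -0.30, called in MOLM-14 and HL-60). Of 9 JAK and STAT genes 3 rose and none fell, a share near the 34.1% of all genes called: TYK2 by 0.30, STAT3, the main STAT of IL-6 and IL-10, by 0.27 (called in each line), and JAK1 by 0.23. Among 9 adaptors and NF-kB genes downstream of TNFRSF1B, MAP3K14, BIRC2 and RELA rose, by 0.53, 0.17 and 0.12, and TRAF3 fell (-0.25), MAP3K14 being dim.

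Of 18 inhibitors of cytokine signalling 3 rose and 1 fell (all genes 17.1% and 17%). SOCS5, a suppressor of cytokine signalling, fell by about equal amounts in all 3 lines (-0.51, -0.53 and -0.50), while the phosphatase PTPN2 rose by 0.25, the ubiquitin ligase CBLB by 0.31 and PIAS3, an inhibitor of STAT3, by 0.29. Of 5 genes that carry out or regulate the shedding of receptors from the surface, ADAM17 rose by 0.23. ADAM10, RHBDF1, RHBDF2 and TIMP3 were not called.

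Among 19 genes known as targets of these pathways 9 rose and 2 fell (all genes 17.1% and 17%), with a median of 0.15. IL1RN, the secreted blocker of IL-1 that IL-10 induces, rose by 0.67 (adjusted p = 8.15e-08; 0.87, 0.77 and 0.35 in HL-60, U937 and MOLM-14), and FCGR1A, the Fc receptor that interferon-gamma induces, by 0.44 (0.26, 0.90 and 0.17). Of the other listed targets of interferon-gamma CXCL10, a dim gene, rose (0.38). IRF1 (0.05), GBP1 (0.07), GBP2 (0.11), CXCL9 (-0.07) and CIITA (-0.02) were not called, and neither was the listed target SBNO2 (0.02). GBP1, CXCL9 and CIITA lay at or under the dim level (means of 2.48, 2.43 and 3.19 over all arrays), so the missing calls say little. BCL3 rose by 0.44 and CCND3 by 0.40, the latter without a call in MOLM-14 (-0.10). PIM2, a survival kinase induced through STAT5, fell (-0.48, most in HL-60 at -0.85), as did CCND2 (-0.27).

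**Figure D5:**
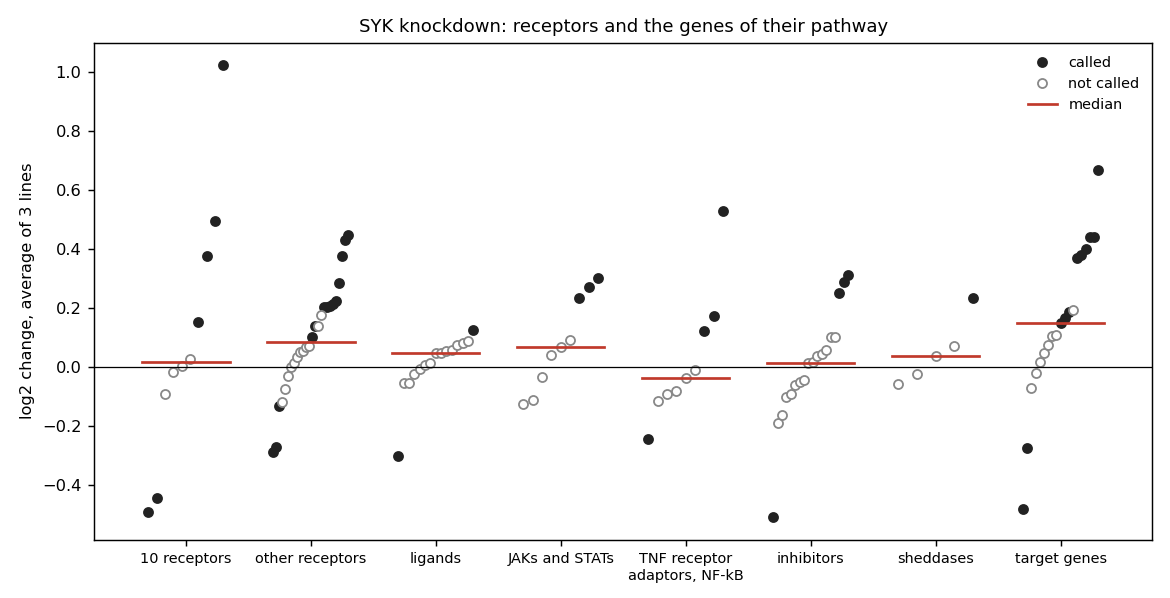
Log2 change with SYK knockdown, averaged over the lines, of the 10 receptors and of the measured genes of 7 pathway lists; each point is a gene, filled points passed an adjusted p of 0.05 and red bars are medians. IL10RA at 1.02 is the highest point, and the list medians lie between -0.04 and 0.15.

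Over the 9 group means some receptors ran together. CSF2RB and TNFRSF1B had a Pearson r of 0.93, CSF2RB and CSF3R 0.88 and IL3RA and IL7R 0.82, while CSF2RB and IL3RA had -0.86 and the GM-CSF receptor chains CSF2RA and CSF2RB -0.80. These describe 9 groups of 3 lines, in which the line sets most of the spread, and carry no test. Of all genes tested, those whose group means followed the receptor most closely were TFEB (r = 0.99), DUSP6 (0.98) and VPS45 (0.98) for CSF2RA, and FAIM, GPX7 and POPDC3 (0.996, 0.996 and 0.995) for IL3RA. For CSF2RB they were DNAJC12, AAMP and CYP51A1 (r = 0.97 each), and for TNFRSF1B PITX1, SLC8B1 and MS4A3 (0.99 each). CYP26B1, PIEZO2 and MS4A6A followed IL7R (0.97, 0.97 and 0.96), CIZ1, CLCN6 and TM2D1 followed CSF3R (0.96, 0.95 and 0.95), and ADAP2, TREML2 and KLF4 followed IFNGR1 (0.94, 0.93 and 0.93). Likeness was lower for IL6R (TBC1D9B 0.93, CYP11B1 0.92, KLHL5 0.90), IL6ST (UBXN2B, PYGL and BNC1, 0.93 each) and IL10RA, whose nearest genes were PLEC at 0.92 and SLC7A7 and SEMA6D at 0.88. Several of these genes varied little over the group means: BNC1 spanned 0.16, SEMA6D 0.25, TBC1D9B 0.30, CYP11B1 0.35, KLHL5 0.50 and PLEC 0.54. UBXN2B, PYGL and SLC7A7 spanned 1.17, 1.82 and 2.88.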

How the data were processed

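Each array holds 1 intensity per probe set. The deposited intensity values were made by the authors with RMA, which corrects background, equalises the arrays and summarises probes (per the submitters' processing notes; its version is not given in the sources used here). They ran from 3.23 to 13024.67 on a linear scale and were turned into log2 values, with no pseudocount and no further normalisation. RMA compresses fold changes of dim genes and gives no detection call.

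Of 22277 probe sets, 62 controls, 568 with several symbols and 1923 with none were left out; of the remaining 19724, 19707 were given current symbols from RefSeq (GRCh38.p14), matched on gene ID. The brightest probe set stood for each gene. One limma 3.58.1 model (R 4.3.3) of 9 group means was fitted to all 21 arrays (12 residual and 4.09 prior degrees of freedom), with 22 contrasts, two-sided tests and Benjamini-Hochberg adjustment over 12165 genes. It was tested on simulated data. No 2 arrays held identical values, and the median SD within groups was 0.123 on the log2 scale. The number of arrays limits the precision.

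Alternatives covered the probe set rule, a filter on dim genes, the prior, array weights, normalisation, each line alone, the conflicting label, the replicate number as a block and each array left out. The receptors and lists were chosen with earlier results of these data known. All 10 receptors are named throughout. Of each pathway list up to 4 called genes in each direction with the smallest p in the average contrast are named. For each receptor the 3 genes of highest r over the group means are named. IFNGR2, CXCL10 and some targets not called were added to set beside IFNGR1, FCGR1A and IL1RN.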

Additional observations from a re-analysis of the deposited data

Results flagged for a closer look

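For 5 receptors a difference between lines in the change with SYK knockdown, pooled over both hairpins, passed limma's test of the difference itself. IL10RA rose less in MOLM-14 than in HL-60 (-1.85) and less in U937 than in HL-60 (-1.53). The IL7R values (-1.52 for MOLM-14 minus U937, -1.28 for MOLM-14 minus HL-60) cannot be read as a comparison of responses. In both U937 and HL-60 IL7R was dim with shLuc, so no fall could be measured there. CSF3R, which rose in HL-60 and was not called in MOLM-14, differed by -0.67 between them. CSF2RB differed by -0.49 between the same lines. CSF2RA rose in HL-60 alone, and its response in MOLM-14 and in U937 differed from that in HL-60 by -0.61 and -0.54; the latter lost its call under 10 alternatives.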

How the results depend on the processing

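No called change of a receptor reversed under any alternative run. Over all 22 contrasts the alternatives other than leaving out an array added 52 calls and lost 69, and leaving out each array in turn added 47 and lost 104; where 1 array remained in a group, it was assumed to vary like the others. Placing HL-60 shSYK_2 replicate 1 in shSYK_1 moved the receptors that differed between hairpins from 9 to 5 in the average and from 14 to 8 calls in the single lines. The replicate numbers gave no sign of pairing: over 18 same-numbered pairs the correlations of deviations ran from -0.214 to 0.0918, none over 0.1. Each SYK hairpin had 2 arrays a line, whose deviations mirror each other, so each correlation between the SYK hairpins enters the 18 in duplicate. The replicate block moved the called response differences between lines from 8 to 5 and the receptors called in the average from 6 to 5.

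With each array left out, the receptors called ran from 5 to 6 in the average, 3 to 5 in MOLM-14, 3 in U937 throughout, 4 to 5 in HL-60, 5 to 8 for shSYK_1, 6 to 8 for shSYK_2 and 6 to 10 for their difference. Calls ran from 25 to 31 for single hairpin effects, 10 to 14 for hairpin differences in single lines, 7 to 10 for response differences and 20 to 22 between control lines. Of the average calls CSF3R was the one lost: 0.13 (adjusted p = 0.0556) with arrays centred on the median and 0.18 (adjusted p = 0.113) with that array placed in shSYK_1; the cause was not tested. Borderline calls were CSF3R for shSYK_1 in U937, lost under 14 alternatives, and the CSF2RB difference between hairpins in HL-60, lost under 24. The filter on dim genes removed IL7R, and fits of each line alone give no contrast across lines. Centring on the median moved the median of all genes by over 0.1 in 2 comparisons of control lines, MOLM-14 against HL-60 (-0.06 to -0.17) and U937 against HL-60 (-0.05 to -0.16). Signal near the dim level limits IL7R and IL3RA in U937 and HL-60.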
